A study of Mus musculus with 3 samples.

Results

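The Bcl2 family survival genes described here are 9 genes that were listed by symbol: the pro-survival genes Bcl2, Mcl1, Bcl2l1 and Bcl2a1b, the effectors Bax and Bak1, and the BH3-only genes Bcl2l11, Bad and Pmaip1. Each of the 9 symbols matched 1 row of the 27998 genes counted in mouse bone marrow cells. Messenger RNA was counted cell by cell with 10x Chromium v2 chemistry in 1 library for each of 3 sorted populations on a C57BL/6 background. ILCpro_KO came from Tcf7EGFPnull/- mice, which lack the transcription factor TCF-1, and was sorted as Lin- Kit+ 2B4+ cells that were a4b7+ and Tcf7+, a gate for early innate lymphoid cell (ILC) progenitors. ILCpro_WT passed the same gate and came from Tcf7EGFP/+ mice, in which 1 of the alleles carries the reporter. ALP, the all-lymphoid progenitor, came from Tcf7EGFP/+ mice too and was sorted as Lin- Kit+ 2B4+ cells that were a4b7-, Flt3high and IL-7Ra+. The labels give neither the age nor the number of the mice, nor which part of Tcf7 the null alleles lack. The question for these genes is how the sum of pro-survival and pro-death messages differs between the genotypes and between the stages.

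Proteins of the Bcl2 family decide at the outer mitochondrial membrane whether a cell starts to dismantle itself. BCL2, MCL1, BCL-XL (from Bcl2l1) and A1 (from Bcl2a1b) hold the pore-forming effectors BAX and BAK (from Bak1) in check. The BH3-only proteins BIM (from Bcl2l11), BAD and NOXA (from Pmaip1) bind the guardians and release the effectors. In lymphocytes and their precursors interleukin 7 is known to keep cells alive in part through BCL2 and MCL1, and BIM is the main opponent of BCL2 in mice.

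The promoters of Bcl2 and Bcl2l11 are shown because these 2 members had the largest differences on the log2 scale between ILCpro_WT and ALP. They are RefSeq windows of 300 bases around a start site on GRCm38.p6 and are read 5′ to 3′ on the gene's strand. The Bcl2 window lies at chr1:106714241-106714540 on the minus strand and holds 76.0% G and C. The Bcl2l11 window, the first of 2 in the table, lies at chr2:128125788-128126087 on the plus strand and holds 71.0% G and C. Capitals mark a match to a FOXO motif, TGTTTAC, which lies on the opposite strand at an offset of -227 from the start site.
Bcl2: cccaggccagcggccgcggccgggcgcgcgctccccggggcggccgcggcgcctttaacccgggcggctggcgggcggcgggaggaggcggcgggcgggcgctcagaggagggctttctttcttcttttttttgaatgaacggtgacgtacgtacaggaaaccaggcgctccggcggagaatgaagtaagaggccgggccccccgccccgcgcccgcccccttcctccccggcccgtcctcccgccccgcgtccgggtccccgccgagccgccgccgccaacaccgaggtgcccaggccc
Bcl2l11: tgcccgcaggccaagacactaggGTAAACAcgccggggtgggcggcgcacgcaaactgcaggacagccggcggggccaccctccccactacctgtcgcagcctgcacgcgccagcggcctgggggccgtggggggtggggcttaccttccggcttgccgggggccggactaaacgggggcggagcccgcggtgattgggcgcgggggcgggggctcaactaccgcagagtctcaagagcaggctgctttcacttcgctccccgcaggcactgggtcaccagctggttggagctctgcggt

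A search on both strands for the TCF/LEF letters CTTTGAT and CTTTGTT, the FOXO letters TGTTTAC and the STAT5 letters TTCNNNGAA found no other match in the 12 windows listed for 8 of the 9 members. Over all 32851 windows of the table the shares with a match were 9.33% for TCF/LEF, 3.65% for FOXO and 8.30% for STAT5. A match is a run of letters and not a binding site, and these short windows leave out distal elements.

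After removal of cells with fewer than 500 detected genes or more than 10% mitochondrial UMIs (unique molecule counts), 716 ILCpro_KO, 1829 ILCpro_WT and 810 ALP cells remained, with 4384061, 6094683 and 4115605 UMIs. The median cell held 5309 UMIs in ILCpro_KO, 2897 in ILCpro_WT and 4544.5 in ALP. Each level is the sum of a gene's UMIs over a library, per 1000000 UMIs of that library (CPM), and the range in parentheses is its exact Poisson interval at 95%. Folds are ratios of CPM with exact conditional binomial intervals. All intervals cover counting error only, and with 1 library per group no difference has a replicate check and none was tested. Tcf7 stood at 57.3 CPM in ILCpro_KO, 362 CPM in ILCpro_WT and 1.46 CPM in ALP, and 3′ tags from outside the deleted part check nothing. The 10 markers of ILC precursors summed to 1051, 2607 and 222 CPM in the same order, and the 8 measured markers of ALP to 741, 454 and 3006 CPM. Markers of other lineages were detected and differed between the libraries. The 13 neutrophil and monocyte markers summed to 4769 CPM in ILCpro_KO, 495 CPM in ILCpro_WT and 985 CPM in ALP, and Ngp, Camp and Ltf were at 0 UMIs in ILCpro_WT. The 12 markers of conventional dendritic cells summed to 1617, 752 and 806 CPM and the 9 of natural killer cells to 702, 1666 and 153 CPM in the same order.

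Bcl2 (chromosome 1, 106538178 to 106714274, minus strand, GRCm38) had the most UMIs of the members in each library and was the single member called 2-fold different between any pair of them, by the rule given below. It stood at 1033 CPM (1003 to 1064) in ILCpro_KO, at 1219 CPM (1192 to 1247) in ILCpro_WT, and in ALP at 263 CPM (248 to 279). Both ILC progenitor libraries were thus far above ALP and close to each other. ILCpro_WT was 4.64-fold (4.35 to 4.95) above ALP, and ILCpro_KO 3.93-fold (3.68 to 4.203) above ALP. ILCpro_KO stood at 0.847-fold (0.816 to 0.879) of ILCpro_WT, a difference whose direction turned without the cells of other lineages, as described below. Without scaling, the average cell held 6.33 Bcl2 UMIs in ILCpro_KO, 4.06 in ILCpro_WT and 1.34 in ALP.

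The other pro-survival genes had fewer UMIs, and none was called 2-fold different. Mcl1, whose short-lived protein guards many haematopoietic cells, stood at 35.4 CPM (30.01 to 41.4) in ILCpro_KO, 26.4 CPM (22.5 to 30.8) in ILCpro_WT, and in ALP 24.1 CPM (19.6 to 29.3). ILCpro_KO was 1.34-fold (1.07 to 1.68) above ILCpro_WT, and the interval of ILCpro_WT over ALP, 0.850 to 1.43, included equal levels. Without the cells of other lineages, described below, the log2 ratio of Mcl1 in ILCpro_KO against ILCpro_WT was 0.12 in place of 0.32. Bcl2l1 stood at 7.76 CPM (5.37 to 10.8) in ILCpro_KO, 12.0 CPM (9.39 to 15.1) in ILCpro_WT, and in ALP 10.7 CPM (7.77 to 14.4). The 3 Bcl2l1 intervals overlapped, though the fold of ILCpro_KO over ILCpro_WT, 0.647 (0.418 to 0.985), stayed just under 1. Bcl2a1b had 4, 3 and 4 UMIs in ILCpro_KO, ILCpro_WT and ALP, close to the floor of 3 UMIs, so no fold is given. Its near copies add little: Bcl2a1d had 2, 1 and 0 UMIs, and Bcl2a1a and Bcl2a1c none. Of the 60-base windows in the last 400 bases of the Bcl2a1b transcript, 51.3% also occur in a transcript of a near copy, and reads from such stretches may have been dropped or split by the authors' counting, so the A1 level is uncertain.

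Of the effectors, Bax varied less between the libraries than Bak1. Bax stood at 162 CPM (150.3 to 174) in ILCpro_KO, 144 CPM (135 to 154) in ILCpro_WT, and in ALP 134 CPM (123 to 146). Its levels lay within 1.21-fold (1.08 to 1.36) of each other, the widest gap being that of ILCpro_KO over ALP. Bak1 stood at 71.6 CPM (63.9 to 80.0) in ILCpro_KO, 47.3 CPM (42.0 to 53.0) in ILCpro_WT, and in ALP 50.3 CPM (43.7 to 57.6). Here ILCpro_KO stood apart, 1.52-fold (1.29 to 1.78) above ILCpro_WT and 1.42-fold (1.19 to 1.71) above ALP, while the fold of ILCpro_WT over ALP was 0.940 (0.783 to 1.13).

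The BH3-only genes did not move as a group. Bcl2l11 (chromosome 2, 128126038 to 128162547, plus strand) stood at 26.9 CPM (22.3 to 32.2) in ILCpro_KO, 16.9 CPM (13.8 to 20.5) in ILCpro_WT, and in ALP 33.0 CPM (27.7 to 39.1). ILCpro_WT was therefore the low library, 1.96-fold (1.503 to 2.55) below ALP, and ILCpro_KO lay 1.59-fold (1.21 to 2.10) above ILCpro_WT. Within the clusters that both ILC progenitor libraries filled, described below, this difference was not seen beyond counting error. The fold of ILCpro_KO over ALP, 0.815 (0.631 to 1.05), included equal levels. Bad, which is controlled in large part by phosphorylation of its protein, stood at 76.9 CPM (68.9 to 85.5) in ILCpro_KO, 71.9 CPM (65.3 to 78.9) in ILCpro_WT, and in ALP 54.4 CPM (47.5 to 62.0). Both ILC progenitor libraries were higher than ALP, by 1.41-fold (1.19 to 1.68) for ILCpro_KO and 1.32-fold (1.12 to 1.56) for ILCpro_WT. Pmaip1, a target of p53, had 26, 10 and 7 UMIs, or 5.93 CPM (3.87 to 8.69) in ILCpro_KO, 1.64 CPM (0.787 to 3.02) in ILCpro_WT, and in ALP 1.70 CPM (0.684 to 3.504). The fold of ILCpro_KO over ILCpro_WT was 3.61 (1.69 to 8.40), which on the log2 scale with 10 CPM added to each level is 0.45.

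**Figure D1:**
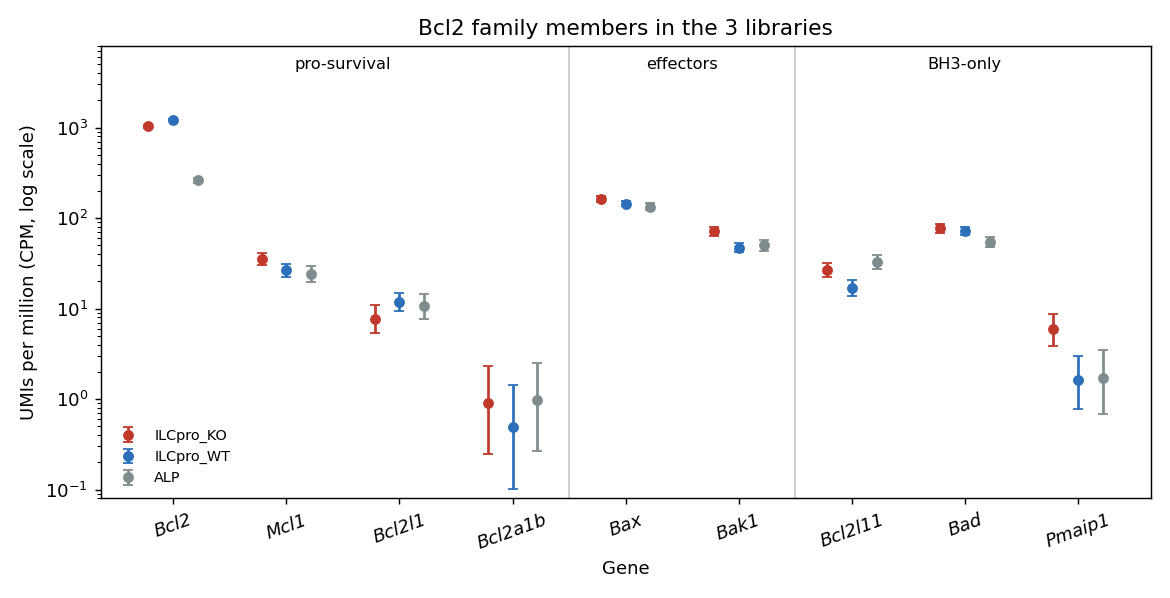
Level of each of the 9 members in ILCpro_KO, ILCpro_WT and ALP, in CPM on a log axis; points are library sums and bars are exact 95% Poisson intervals. Bcl2 at 1033 and 1219 CPM in the ILC progenitor libraries stands far above its 263 CPM in ALP, and Pmaip1, at a far lower level, stands at 5.93 CPM in ILCpro_KO against 1.64 CPM in ILCpro_WT and 1.70 CPM in ALP.

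A call of 2-fold was made on the log2 scale with 10 CPM added, over genes with at least 5 CPM in either library. Between ILCpro_KO and ILCpro_WT 0 of the 8 members that passed this minimum were called, against 2.35% of 9551 genes (1.48% called higher and 0.869% lower). The median of their log2 ratios was 0.24, against 0.09 for all genes. Between ILCpro_WT and ALP 1 of 7 members was called, Bcl2, against 5.17% of 9616 genes (2.11% called higher and 3.06% lower). The medians were 0.10 for the members and -0.07 for all genes. Between ILCpro_KO and ALP 1 of 8 members was called, again Bcl2, against 3.44% of 9644 genes (2.01% called higher and 1.43% lower), with medians of 0.42 and 0.01. At 1.5-fold 0, 2 and 1 members were called in the 3 comparisons, against 9.08%, 14.9% and 10.1% of genes. Bcl2a1b did not pass the minimum in any comparison, and Pmaip1 passed through its ILCpro_KO level alone, so it is missing between ILCpro_WT and ALP. The comparisons of ILCpro_KO and ILCpro_WT with ALP share the ALP library.

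Summed over the members, the pro-survival genes held 1077 CPM (1047 to 1108) in ILCpro_KO, 1258 CPM (1230 to 1287) in ILCpro_WT, and in ALP 299 CPM (282 to 316). The 5 pro-death genes held 343 CPM (326 to 361) in ILCpro_KO, 282 CPM (269 to 296) in ILCpro_WT, and in ALP 273 CPM (258 to 290). The pro-survival sum thus differed several-fold between the stages, whereas the pro-death sum differed little between ILCpro_WT and ALP and was highest in ILCpro_KO. As a share of all member UMIs, pro-survival UMIs made up 75.8% (exact Clopper-Pearson 74.7 to 76.9) in ILCpro_KO, 81.7% (80.9 to 82.5) in ILCpro_WT and 52.2% (50.2 to 54.2) in ALP. Bcl2 by itself made up 72.7%, 79.2% and 46.0% of member UMIs in that order. With Bcl2 left out, a setting chosen after the data were seen, the pro-survival share was 11.4% (9.90 to 13.0) in ILCpro_KO, 12.1% (10.7 to 13.7) in ILCpro_WT and 11.6% (9.85 to 13.4) in ALP, and the 3 intervals overlapped. The shares count 3′ tags, and 1 tag of each gene is weighted alike although the genes' proteins and tag capture are not.

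Ratios of UMIs between members of the guardian and opponent classes were compared next. There were 38.4 Bcl2 UMIs per Bcl2l11 UMI (32.0 to 46.5) in ILCpro_KO, 72.1 (59.4 to 88.5) in ILCpro_WT and 7.96 (6.65 to 9.58) in ALP. The intervals of the 3 libraries did not overlap, with ILCpro_WT at the top through its high Bcl2 and low Bcl2l11. Per Bax UMI there were 6.38 Bcl2 UMIs (5.89 to 6.91) in ILCpro_KO, 8.45 (7.88 to 9.08) in ILCpro_WT and 1.96 (1.77 to 2.18) in ALP. Mcl1, which NOXA binds selectively, had 5.96 UMIs (3.92 to 9.41) per Pmaip1 UMI in ILCpro_KO, 16.1 (8.53 to 34.2) in ILCpro_WT and 14.1 (6.61 to 36.1) in ALP. For Bcl2l1 per Bak1 UMI the values were 0.108 (0.0737 to 0.155) in ILCpro_KO, 0.254 (0.193 to 0.329) in ILCpro_WT and 0.213 (0.1499 to 0.296) in ALP. In these last 2 pairs ILCpro_KO had the lowest value. For Mcl1 per Pmaip1 its interval overlapped those of both other libraries, and for Bcl2l1 per Bak1 it overlapped that of ALP and not that of ILCpro_WT.

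To compare single cells, 1000 UMIs were drawn from each, which left out 4 shallower cells of ILCpro_WT. A Bcl2 UMI was found in 54.7% (51.0 to 58.4) of ILCpro_KO cells, 66.5% (64.3 to 68.7) of ILCpro_WT cells and 22.0% (19.2 to 25.0) of ALP cells. Before the draw these shares had been 86.2%, 89.7% and 61.1%. In the 60 neutrophil-monocyte-like cells of ILCpro_KO, with a median of 8515 UMIs before thinning, 1.67% (0.0422 to 8.94) had a Bcl2 UMI. These cells are part of ILCpro_KO and the lowest in Bcl2 of the groups below, so they set no independent background. At least 5 Bcl2 UMIs among 1000 were found in 3.77% of ILCpro_KO cells and 3.45% of ILCpro_WT cells, and in 0 of 810 ALP cells. For these ALP cells a limit of 3 counts is a share of 0.370%, and the exact interval reaches 0.454%. Cells that showed a pro-survival UMI and no pro-death UMI made up 39.7% (36.1 to 43.3) of ILCpro_KO, 51.0% (48.7 to 53.3) of ILCpro_WT and 19.6% (17.0 to 22.5) of ALP cells. The opposite state, a pro-death UMI and no pro-survival UMI, was seen in 12.3% (9.98 to 14.9) of ILCpro_KO, 7.40% (6.24 to 8.70) of ILCpro_WT and in 162 of the 810 ALP cells (17.3 to 22.9%). At this depth 30.6%, 25.2% and 55.2% of cells showed neither, so these are classes of detection and not of expression.

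**Figure D2:**
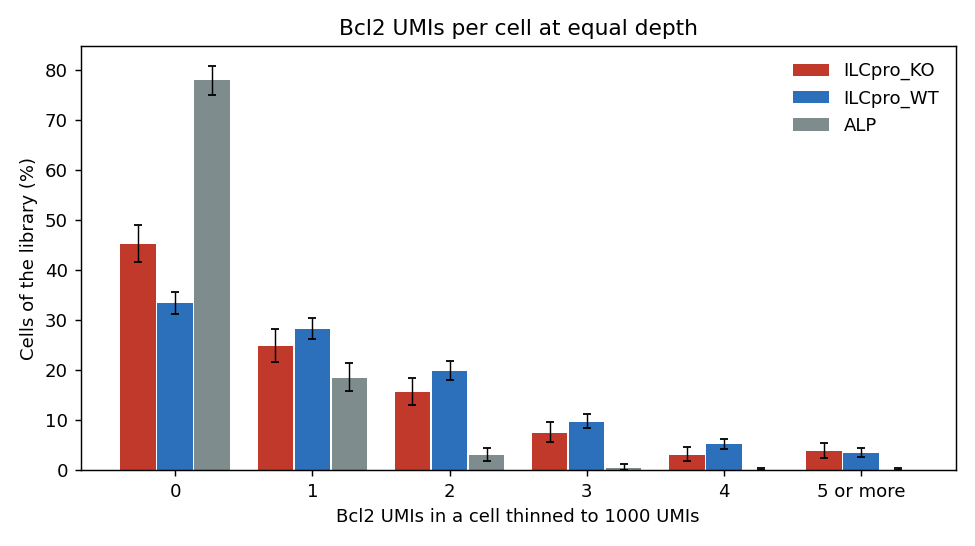
Share of cells of each library, in percent, by the number of Bcl2 UMIs left after thinning every cell to 1000 UMIs; bars are shares and whiskers are exact 95% intervals. At 0 UMIs stand 45.3% of ILCpro_KO, 33.5% of ILCpro_WT and 78.0% of ALP cells, and ALP has no cell at 4 UMIs or more.

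All kept cells were clustered together with the members, the other listed pathway genes, cell type markers and cell cycle genes left out, so that the members' levels did not shape the clusters. Of 14 clusters, numbered by size, those with at least 50 cells of a library are described. Clusters 1 and 3 were ILC precursor (ILCP)-like, 0 and 5 ALP-like, 8 conventional dendritic cell (DC)-like and 10 neutrophil-monocyte-like. Clusters 2, 4, 6, 7 and 9 stayed unnamed and were led by Pf4, Nfil3, Hist1h1b, Bhlhe41 and Stab2. The names come from rebuilt clusters, and clusters 0, 1, 3, 5 and 9 came almost wholly from 1 library, so that library and cell type cannot be told apart in them.

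Bcl2 varied more among the clusters than between the genotypes. In ILCpro_WT it reached 2039 CPM (1815 to 2283) in cluster 7, 1754 CPM in cluster 1 and 1519 CPM in cluster 3. It stood at 1188 CPM in cluster 2, 1183 CPM in cluster 4, 669 CPM in the dividing cells of cluster 6, 617 CPM in cluster 8 and 306 CPM (248 to 374) in cluster 9. The ILCP-like clusters were thus near the top, and cluster 9, whose 10 leading genes include Icos and Arg1, known in group 2 ILCs, and Klrd1 and Eomes, known in natural killer cells, had an interval that overlapped those of the ALP clusters. The lowest level changed with the resolution: the lowest ILCpro_WT cluster of at least 50 cells stood at 634 CPM at resolution 1.5 and at 229 CPM at resolution 0.5. Whether those clusters hold the cells of cluster 9 was not examined. Neighbours in this order whose intervals overlapped were clusters 7 and 1, clusters 2 and 4, and clusters 6 and 8. In ALP the 2 clusters stood at 245 CPM (225 to 267) and 280 CPM (256 to 305). In ILCpro_KO the highest cluster was again 7, at 1939 CPM (1843 to 2039), and the lowest was 10, at 59.9 CPM (40.7 to 85.0).

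Clusters 2, 4, 6, 7 and 8 held at least 50 cells of both ILC progenitor libraries. Bcl2 in ILCpro_KO against ILCpro_WT stood at 1374 against 1188 CPM in cluster 2, a fold of 1.16 (1.03 to 1.29), and at 891 against 669 CPM in cluster 6, a fold of 1.33 (1.20 to 1.48). The folds were 0.980 (0.882 to 1.09) in cluster 4, 0.951 (0.840 to 1.08) in cluster 7 and 1.06 (0.879 to 1.29) in cluster 8. Within none of these 5 clusters was the lower Bcl2 of the whole ILCpro_KO library seen beyond counting error. The libraries differed in their makeup. The ILCP-like clusters 1 and 3, high in Bcl2, held 27.9% and 18.7% of ILCpro_WT cells but 3.49% and 1.12% of ILCpro_KO cells, and cluster 10, low in Bcl2, held 8.38% of ILCpro_KO and 0.492% of ILCpro_WT cells. Other clusters went the other way. Cluster 7, highest in Bcl2, held 23.2% of ILCpro_KO and 2.84% of ILCpro_WT cells. Cluster 9, low in Bcl2, held 0.140% of ILCpro_KO and 5.14% of ILCpro_WT cells. The part of makeup in the Bcl2 difference was not tested. Without the clusters named for other lineages (8, 10, 12 and 13) the log2 ratio of Bcl2 in ILCpro_KO against ILCpro_WT was 0.02, in place of -0.24. It was 0.06 when cluster 11, led by Prss34 and Mcpt8, was left out as well, a setting chosen after the data were seen.

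**Figure D3:**
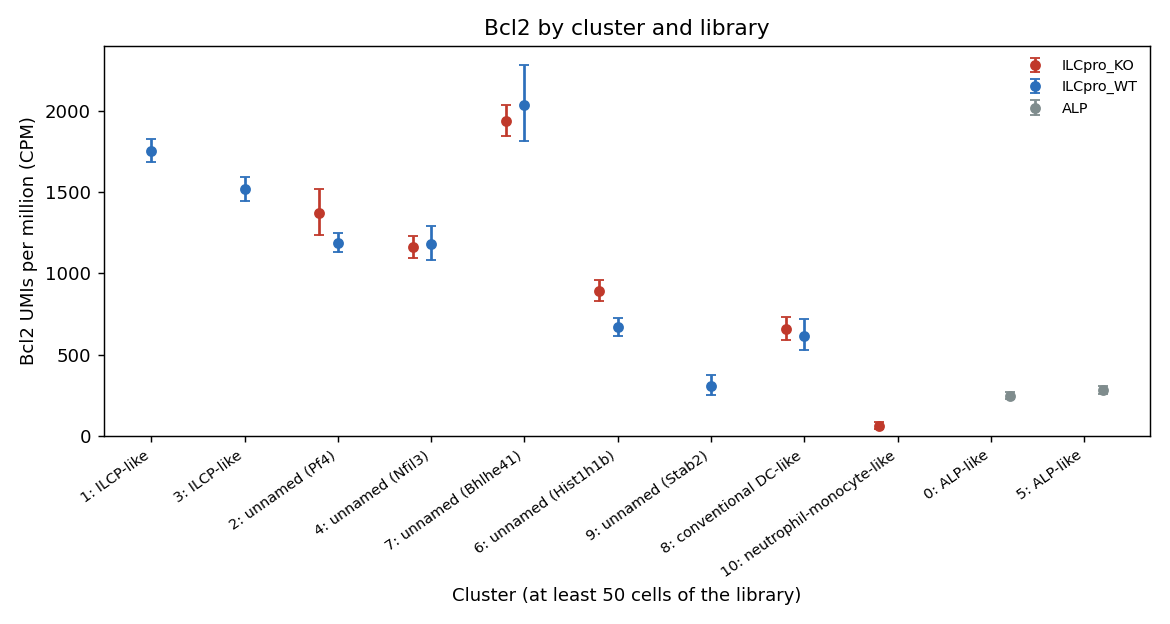
Bcl2 level in CPM for each cluster with at least 50 cells of a library, with ILCpro_KO, ILCpro_WT and ALP as separate points and exact 95% Poisson intervals. The ILCpro_KO and ILCpro_WT points stand at 1939 and 2039 CPM in cluster 7 and at 656 and 617 CPM in cluster 8. Their fold is widest in cluster 6, at 891 and 669 CPM, while the clusters differ several-fold.

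The other members followed other orders. Bak1 in ILCpro_KO against ILCpro_WT had folds above 1 in the 5 shared clusters, from 1.13 (0.675 to 1.95) in cluster 8 to 1.71 (1.14 to 2.58) in cluster 6, and in cluster 6 alone did the interval leave out equal levels. Bax folds ran from 1.08 (0.825 to 1.42) in cluster 6 to 1.35 (0.971 to 1.91) in cluster 4, each with an interval that included equal levels. In ILCpro_WT Bax was lowest in cluster 4 at 111 CPM and highest in cluster 9 at 189 CPM, where Bcl2 was lowest. Bak1 and Bad were highest in the conventional DC-like cluster 8, at 87.0 and 132 CPM in ILCpro_WT. Bcl2l1 was uneven, at 21.5 CPM in ILCP-like cluster 1 and 2.26 CPM, or 1 UMI, in cluster 4 of ILCpro_WT. In ALP Bcl2l11 stood at 44.7 CPM in cluster 0 and 19.2 CPM in the dividing cells of cluster 5, a wider gap than Bcl2 showed there.

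The pro-survival share of member UMIs followed Bcl2. It was 85.6% (83.9 to 87.1) in ILCpro_KO and 87.0% (83.0 to 90.3) in ILCpro_WT in cluster 7. In cluster 2 it was 82.2% and 81.9%, in cluster 6 74.9% and 74.4%, and in cluster 8 63.8% and 63.9%, with ILCpro_KO first. Cluster 4 had the widest gap between the genotypes, 77.5% (75.2 to 79.6) in ILCpro_KO and 82.1% (79.0 to 85.0) in ILCpro_WT. There too the intervals met, which does not show equal shares. Cluster 9 of ILCpro_WT, at 49.3% (42.4 to 56.2), was near the ALP clusters 0 and 5 at 49.6% and 55.8%. Cluster 10 of ILCpro_KO was lowest at 25.7% (20.3 to 31.8), with 99 UMIs of Bax and 31 of Bcl2.

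**Figure D4:**
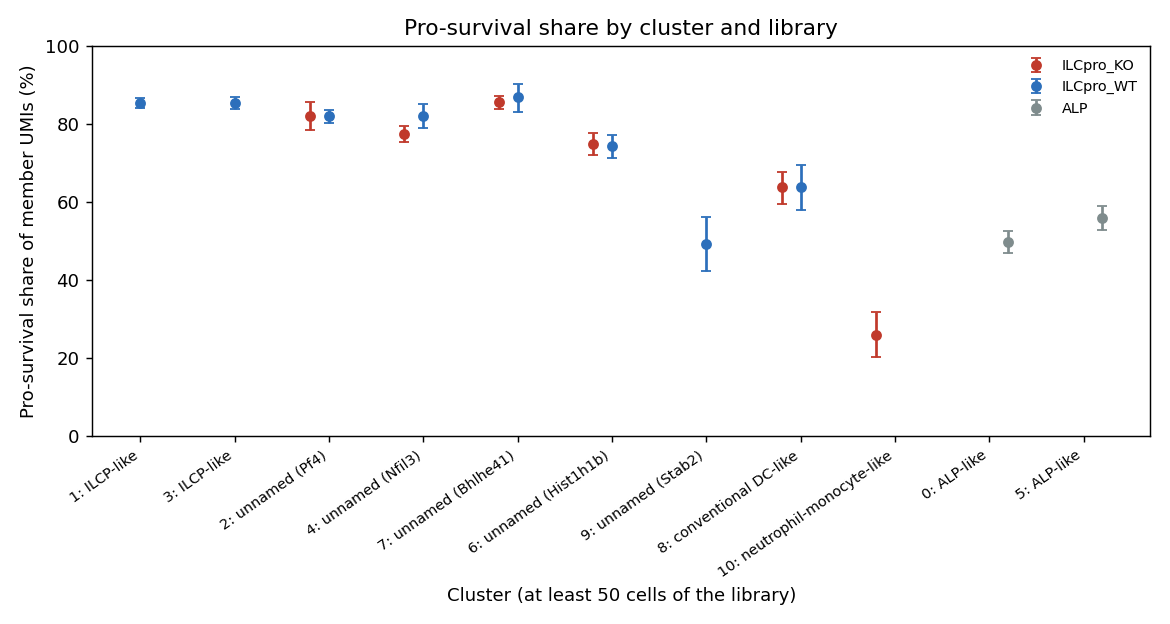
UMIs of the 4 pro-survival members as a percent of UMIs of all 9 members, by cluster and library, with exact 95% Clopper-Pearson intervals. The shares run from 25.7% in neutrophil-monocyte-like cells of ILCpro_KO to 87.0% in cluster 7 of ILCpro_WT. The intervals of the 2 genotypes overlap in each cluster that both fill, which does not show equal shares.

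Cell cycle phases were called per cell from S and G2/M genes, and cells called G1 made up 37.3% of ILCpro_KO, 63.4% of ILCpro_WT and 30.4% of ALP. Bcl2 was highest in cells called G1 in both ILC progenitor libraries and not in ALP. In ILCpro_KO it stood at 1552 CPM in G1, 1024 CPM in S and 664 CPM in G2/M, and in ILCpro_WT at 1582, 891 and 733 CPM. In ALP the levels were 236, 259 and 280 CPM. The fold of G1 over G2/M was 2.34 (2.16 to 2.53) in ILCpro_KO, 2.16 (2.02 to 2.31) in ILCpro_WT and 0.841 (0.707 to 0.998) in ALP. Among cells called G1 the fold of ILCpro_KO over ILCpro_WT was 0.981 (0.928 to 1.04), which included equal levels. Mcl1 in those cells stood at 52.7 CPM in ILCpro_KO, 26.8 CPM in ILCpro_WT and 27.2 CPM in ALP, and the fold of ILCpro_KO over ILCpro_WT was 1.97 (1.39 to 2.77). This Mcl1 fold was not split by cluster.

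The phases do not hold the same clusters, and the part of this in the fold was not tested. Of ILCP-like clusters 1 and 3, 91.6% and 85.7% of ILCpro_WT cells were called G1, and within them the folds of Bcl2 in G1 over G2/M, 0.977 (0.805 to 1.20) and 1.01 (0.810 to 1.28), included equal levels, with 22 and 20 G2/M cells. Within cluster 2 of ILCpro_WT the fold was 1.43 (1.21 to 1.71), and within cluster 4 it was 1.91 (1.56 to 2.34) in ILCpro_KO and 1.59 (1.21 to 2.12) in ILCpro_WT. In cluster 8 of ILCpro_KO it was 1.54 (1.15 to 2.07) and in cluster 9 of ILCpro_WT 2.05 (1.03 to 3.92), each with few cells, while in cluster 0 of ALP it was 1.17 (0.768 to 1.86). Cells called G1 were also shallower, with a median of 3862 UMIs against 7903 in G2/M in ILCpro_KO and 2486 against 4133 in ILCpro_WT. Depth also differed in ALP, at 3160.5 against 6454 UMIs, where Bcl2 was not higher in G1. The part of depth in the ILC progenitor folds was not tested.

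Bcl2l11 differed by phase in another pattern. Its fold of G1 over G2/M was 2.86 (1.69 to 4.99) in ILCpro_KO and 2.21 (1.32 to 3.71) in ALP, but 1.07 (0.642 to 1.84) in ILCpro_WT. In cells called G1 it stood at 41.1 CPM (30.1 to 54.8) in ILCpro_KO, 17.1 CPM (12.9 to 22.3) in ILCpro_WT, and in ALP 42.0 CPM (29.1 to 58.6). In S the levels were 28.9, 17.2 and 42.4 CPM and in G2/M 14.4, 16.0 and 19.0 CPM, in the same order. ILCpro_WT was thus the low library in cells called G1 or S, and in G2/M the 3 intervals overlapped. These Bcl2l11 levels by phase were not split by cluster. Bax differed little by phase, with folds of G1 over G2/M of 1.06 (0.863 to 1.29) in ILCpro_KO, 1.20 (1.01 to 1.43) in ILCpro_WT and 0.963 (0.751 to 1.23) in ALP.

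**Figure D5:**
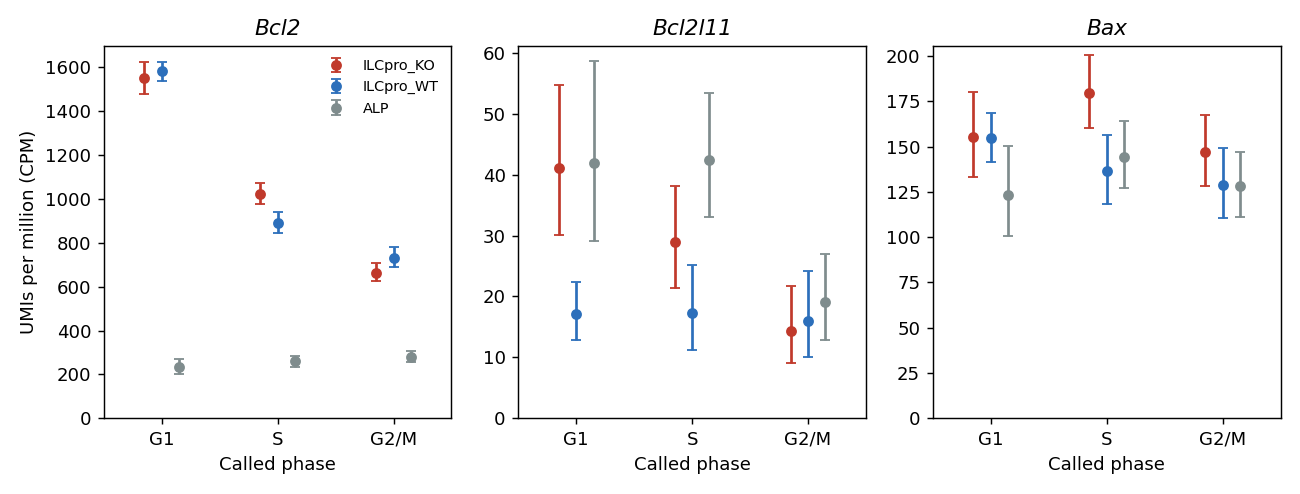
Levels of Bcl2, Bcl2l11 and Bax in CPM in cells called G1, S and G2/M, for ILCpro_KO, ILCpro_WT and ALP, with exact 95% Poisson intervals; each panel has its own axis from 0. Bcl2 is highest in G1 in the ILC progenitor libraries, at 1552 and 1582 CPM. In ALP it runs from 236 CPM in G1 to 280 CPM in G2/M. Bcl2l11 is lowest in ILCpro_WT in G1 and S.

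Over the 16 sums of a cluster in a library the genes whose levels on the log2 scale were most like Bcl2, among 3242 with at least 50 CPM in a library, were Runx3 (Pearson r = 0.96), Tox (0.92) and H2-Q6 (0.89). Runx3 stood at 619 CPM in ILCpro_KO, 694 CPM in ILCpro_WT and 92.6 CPM in ALP, an order like that of Bcl2. The members Bax (-0.27), Bak1 (-0.07) and Bad (0.06) did not follow Bcl2. Bak1 was most like Tspo, Arpc1b and Pycard (0.89 each), Bad most like Gng2 (0.86), Cnn2 and Arhgap9 (0.84 each), and Bax most like Eno1 (0.76), Cd3d and Junb (0.73 each). The points share libraries, depth and cells from neighbouring clusters, so these values describe and test nothing.

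The next lists were also chosen with earlier results in view. Beside their counts stand the shares of all genes called. These were 2.35% between ILCpro_KO and ILCpro_WT, 5.17% between ILCpro_WT and ALP and 3.44% between ILCpro_KO and ALP. Among 17 other genes of the family 8 reached 5 CPM in either ILC progenitor library, and 1 of them was called 2-fold different between ILCpro_KO and ILCpro_WT. Bik, a BH3-only gene, stood at 2.28 CPM in ILCpro_KO, 16.4 CPM in ILCpro_WT and 0.729 CPM in ALP, from 10, 100 and 3 UMIs. It was 7.19-fold (3.75 to 15.5) lower in ILCpro_KO than in ILCpro_WT, and the sole gene of this list called between ILCpro_WT and ALP. None of the list was called between ILCpro_KO and ALP. Bid, a BH3-only gene that links caspase 8 to mitochondria and was picked after its values were seen, stood at 63.4 CPM in ILCpro_KO, 30.4 CPM in ILCpro_WT and 44.5 CPM in ALP, a fold of 2.09 (1.73 to 2.53) for ILCpro_KO over ILCpro_WT that is 0.86 on the log2 scale with 10 CPM added.

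Downstream of mitochondria 14 of 14 genes reached the minimum, and none was called 2-fold different between ILCpro_KO and ILCpro_WT, where their log2 ratios ran from -0.40 to 0.65. Between ILCpro_WT and ALP 1 was called, Birc5, which encodes survivin and serves cell division as well, at 115 CPM in ILCpro_WT against 240.3 CPM in ALP. Of 5 genes that act on MCL1 turnover 0 were called between ILCpro_KO and ILCpro_WT, and Ube2c, a mitotic gene, was the 1 called between ILCpro_WT and ALP, at 124 against 281 CPM. Neither list had a gene called between ILCpro_KO and ALP. With 2.35% of all genes called between ILCpro_KO and ILCpro_WT, 0 called in lists of 14 and 5 genes says little about these pathways.

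Of 19 upstream genes, receptors and transcription factors among them, 17 were measured between ILCpro_KO and ILCpro_WT, and 3 were called lower and 1 higher. The median of their log2 ratios was 0.01, against 0.09 for all genes. Il7r, the interleukin 7 receptor chain, stood at 9.35 CPM in ILCpro_KO, 96.1 CPM in ILCpro_WT and 146 CPM in ALP. The order of the libraries differed from that of Bcl2. Among the ILCpro_WT clusters Il7r was highest in cluster 1, at 310 CPM, where Bcl2 stood at 1754 CPM. That cluster held 25 ILCpro_KO cells. A link between Il7r and Bcl2 was not tested. Il2rg, the common gamma chain, stood at 40.1 CPM in ILCpro_KO, 104 CPM in ILCpro_WT and 36.4 CPM in ALP. Kit, the stem cell factor receptor, stood at 22.8, 66.1 and 30.4 CPM, and Flt3, which is part of the ALP gate, at 67.7, 17.6 and 288 CPM in the same order. Il7r is part of the ALP gate too. Between ILCpro_WT and ALP 2 of 18 genes were called higher and 2 lower. Nfkb1, whose protein is an NF-kB subunit, stood at 394 CPM in ILCpro_KO, 264 CPM in ILCpro_WT and 85.5 CPM in ALP, and Myc at 53.1, 29.7 and 82.9 CPM. Between ILCpro_KO and ALP 1 of 18 was called higher, Nfkb1, and 2 lower, Il7r and Flt3.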

How the data were processed

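The authors deposited 1 matrix per library with raw UMI counts, one row for each gene. Tools named per the submitters' processing notes are Cell Ranger 2.0.1, bcl2fastq 2.17 and STAR 2.5.1b, with build mm10; their roles and settings are not given in the sources used here. Members and gene lists were chosen with earlier results of these data known. Counts were summed per library over kept cells, 716 of 716, 1829 of 1834 and 810 of 812 barcodes in ILCpro_KO, ILCpro_WT and ALP, and scaled to CPM. ILCpro_KO shared 1 barcode with ILCpro_WT and 0 with ALP, and ILCpro_WT shared 4 with ALP. Doublets were scored with Scrublet and kept.

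With 1 library per group no test was run. Intervals are exact at 95% and ignore that cells of a library share their source. Leiden clustering (leidenalg 0.10.2, scanpy 1.11.5) used 2000 variable genes, 30 principal components, 15 neighbours and resolution 1.0, and no batch integration. To be named, a cluster had to exceed the remaining cells 2-fold in 3 markers of a type, and no other type could hold more of its 10 leading genes or the first of them. Code for ratios was tested on simulated data. Gene locations are from GENCODE vM21 (GRCm38), joined on Ensembl identifiers. Genes outside the 9 members were named where called 2-fold in a listed set, or among the 3 most alike in pattern to a member, Bid excepted. UMIs count 3′ ends, so levels were not divided by gene length.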

Additional observations from a re-analysis of the deposited data

How the results depend on the processing

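No paired analysis was possible because each group has 1 library. Of 270 member log2 ratios under 10 alternatives, 252 moved by less than their counting interval, 18 by more, and 0 that were called changed sign. In the main setting only Bcl2 against ALP was called, with folds so large that a change of sign was hardly possible. Ratios not called did change sign for Bcl2, Mcl1, Bcl2a1b, Bak1, Bad and Pmaip1. For genes with few UMIs the interval is wide, and Pmaip1 stayed within it even where it became called, as given below. The ratio of Bcl2 in ILCpro_KO against ILCpro_WT, not called, ran from -0.36 to 0.06, and that of Bad from -0.06 to 0.10. No alternative scaling moved the median of all genes by over 0.1. The count of members called between ILCpro_KO and ILCpro_WT was 1 in place of 0, and between ILCpro_KO and ALP 2 in place of 1, with a pseudocount of 1 CPM, where Pmaip1 was added. The share of all genes called with that pseudocount was not counted, so these counts have no background beside them. Between ILCpro_WT and ALP the count of members called was 2 in place of 1 at 1.5-fold, where Bcl2l11 was added.

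The pro-survival share in ILCpro_KO was 83.2% in cells called G1, 79.6% without clusters of other lineages, 80.2% also without cluster 11 (chosen after seeing the data), and 78.0% as a mean of per-cell CPM. In ILCpro_WT it was 84.9% in G1, 80.8% with a stricter cell filter, 82.5% without other lineages and cluster 11, and 82.8% per cell. In ALP it was 50.1% without Mcl1. Without Bcl2 these shares were 11.4%, 12.1% and 11.6% in ILCpro_KO, ILCpro_WT and ALP. Thinned to 500 UMIs, a Bcl2 UMI was found in 38.4%, 44.9% and 11.7% of cells in that order. At resolution 0.5 the highest Bcl2 level of a cluster was 1457 CPM in ILCpro_KO and 1747 CPM in ILCpro_WT, and the lowest in ILCpro_WT 229 CPM. At resolution 1.5 that lowest level was 634 CPM. Depth limits Bcl2a1b, Pmaip1 and Bcl2l1, whose UMIs number 73 or fewer in each library.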

Other observations

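Bik, which outside the 9 members was the family gene with the widest gap between the ILC progenitor libraries, had its highest level in an ILCP-like cluster. In ILCpro_WT it stood at 47.4 CPM (36.5 to 60.5) in ILCP-like cluster 1, 22.1 CPM (8.89 to 45.5) in cluster 9 and 15.2 CPM (8.88 to 24.4) in ILCP-like cluster 3, against 1.44 CPM (0.175 to 5.21) in cluster 2. In ILCpro_KO it had 0 UMIs in clusters 2, 4, 6 and 10, with an upper limit of 13.4 CPM in cluster 2. ILCpro_WT itself had 2, 1 and 6 Bik UMIs in clusters 2, 4 and 6. In clusters 7 and 8 Bik had 2 and 4 UMIs in ILCpro_KO, against 0 and 3 in ILCpro_WT. Clusters 1, 3 and 9 held under 50 ILCpro_KO cells each, so the gene could not be compared between genotypes where it was highest.

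Within the 5 clusters that both ILC progenitor libraries filled, Il7r had few UMIs. With ILCpro_KO first, there were 0 and 31 in cluster 2, 1 and 8 in cluster 4, and 0 and 23 in cluster 6. In clusters 7 and 8 there were 19 and 8, and 0 and 2. ILCpro_WT stood at 22.4, 25.1 and 7.57 CPM in clusters 2, 6 and 8. The upper limits for ILCpro_KO there were 13.4, 4.44 and 7.57 CPM. Cluster 4 had 1.04 CPM (0.0263 to 5.78) in ILCpro_KO and 18.1 CPM (7.80 to 35.6) in ILCpro_WT. Cluster 7 had 24.0 CPM (14.4 to 37.4) in ILCpro_KO and 54.2 CPM (23.4 to 107) in ILCpro_WT. In clusters 7 and 8 the intervals overlapped. Bcl2 levels in the same clusters are given above.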
